A study of Mus musculus with 21 samples.

Results

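Antigen presentation genes are described here through 10 members, H2-Aa, H2-Ab1, H2-Eb1, Cd74, H2-DMa, Ctss, Psmb8, Psmb9, Tap1 and B2m. They were found by the gene symbol that the platform annotation gives each probe set, without use of measured values. They had 17 of the 20380 probe sets with a single symbol, and 9 of the 10 genes passed a filter on low values (log2 above 4 in at least 3 arrays), as did 7320 of 12393 genes in all. Liver RNA of male mice aged 9 months was measured on 21 Affymetrix arrays. KO mice lacked Mdr2, the canalicular phospholipid transporter encoded by Abcb4, and carry the strain label FVB129P2. Control mice carry the label FVB129P2/FVBNJ, so genotype and strain label cannot be told apart. All mice underwent a 30% partial hepatectomy (PHx), and no mouse without surgery is among the samples. Day 0 is the lobe removed at surgery (KO n = 6, control n = 3), and day 2 and day 6 are the remaining liver (n = 3 per genotype and day). The labels give the mouse number, and several mice were sampled on day 0 and again later. The series title concerns liver inflammation and liver cancer. The questions the design poses for these genes are whether the genotypes differ on each day and whether levels differ between days after resection.

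MHC class II molecules are pairs of an alpha and a beta chain that show peptides from engulfed material to CD4 T cells. The invariant chain, encoded by Cd74, fills their groove until the protease cathepsin S (Ctss) trims it and H2-DM exchanges the remnant for peptide. In liver these genes are known from dendritic cells, B cells and macrophages, including the resident Kupffer cells, and the coactivator CIITA drives their promoters. MHC class I molecules, held together by beta-2-microglobulin (B2m), are carried by nearly every cell. Interferon-gamma replaces proteasome subunits with Psmb8 and Psmb9, and the transporter Tap1 with Tap2 brings the peptides into the endoplasmic reticulum. In bulk liver, fewer cells of a type and less RNA per cell cannot be told apart.

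By RefSeq annotation of GRCm38.p6, 7 members lie in the MHC on chromosome 17, from H2-DMa to H2-Eb1 (chr17:34119693-34316674). Cd74, Ctss and B2m lie on other chromosomes. RefSeq promoter windows on the same build were matched for 8 of the 10 members; H2-Ab1 and Cd74 are named only. The bases just before the annotated start of 5 of them are shown, 5′ to 3′ on the strand of the named gene, because the report turns on how class II and class I genes differ. Capitals mark matches to short motifs chosen after the windows were read. In H2-Aa and H2-Eb1 they mark the X box core CTNGCAAC and the Y box CTGATTGG. In H2-Aa they also mark the palindrome TGACGTCA, which cyclic AMP response factors bind. These boxes are known as the landing site of the complex that recruits CIITA.

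H2-Aa, chr17:34287824-34287943, minus strand: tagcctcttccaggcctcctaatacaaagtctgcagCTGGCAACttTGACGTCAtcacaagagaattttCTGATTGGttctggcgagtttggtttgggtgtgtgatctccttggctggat
H2-Eb1, chr17:34305747-34305866, plus strand: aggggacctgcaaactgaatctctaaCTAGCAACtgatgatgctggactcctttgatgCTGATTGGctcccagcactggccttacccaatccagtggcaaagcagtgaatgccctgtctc

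Psmb9 and Tap1 are transcribed away from each other, and 225 bases separate their starts. The whole interval is given on the strand of Tap1. The capitals are the Y box read from the other strand, CCAATCAG, which lies 4 to 11 bases from the Psmb9 start.

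Psmb9 to Tap1, chr17:34187331-34187555, plus strand: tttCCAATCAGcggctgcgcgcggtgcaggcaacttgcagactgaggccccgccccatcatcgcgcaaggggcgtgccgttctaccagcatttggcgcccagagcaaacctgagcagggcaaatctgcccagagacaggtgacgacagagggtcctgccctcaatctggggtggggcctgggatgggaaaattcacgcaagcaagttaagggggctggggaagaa

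In Ctss and B2m the capitals mark the core of the interferon-stimulated response element, GAAA and GAAA with 2 bases between. In B2m they also mark ATTGG, the CCAAT box on the opposite strand.

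Ctss, chr3:95526666-95526785, plus strand: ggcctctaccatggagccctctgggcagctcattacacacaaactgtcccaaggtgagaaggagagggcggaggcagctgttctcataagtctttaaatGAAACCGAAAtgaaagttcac
B2m, chr2:122147527-122147686, plus strand: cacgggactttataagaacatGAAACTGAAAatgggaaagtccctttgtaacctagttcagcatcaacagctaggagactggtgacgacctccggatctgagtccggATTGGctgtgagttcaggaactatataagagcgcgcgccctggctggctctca

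Both strands of the 250 bases before each start were searched. CTNGCAAC was matched in H2-Aa and H2-Eb1 and in 2.84% of all 32817 RefSeq windows. The Y box was matched in H2-Aa, H2-Eb1, Psmb9 and Tap1 and in 3.82% of windows. It contains a CCAAT box, which alone was matched in 33.8%, and the Psmb9 and Tap1 matches are the same bases seen from both sides. TGACGTCA was matched in H2-Aa and in 1.55% of windows, and the interferon-stimulated element in Ctss and B2m and in 2.97%. TTCNNNGAA, the gamma-activated site, was matched in Psmb8 as TTCCCAGAA and in 7.01% of windows. A match is a description of letters, not a measured binding site.

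Abcb4, the targeted gene, read 7.25 to 8.96 (log2) in the 12 KO arrays and 9.23 to 10.33 in the 9 control arrays. The labels do not say where its probe set sits in the disrupted gene, and a probe set outside the disruption would check nothing. All values are GCRMA signals on a log2 scale, and array medians were 3.80 to 4.10. On 3 arrays the 3′ signal of Gapdh exceeded the 5′ signal by more than 1, which can mark shortened RNA: control day 2 mouse 265 (9.50), KO day 0 mouse 337 (2.03) and control day 2 mouse 263 (1.58). Control day 6 mouse 303 followed at 0.94. Results are also given without the 3 arrays, which leaves control day 2 with mouse 264 alone. Hepatocyte markers, centred per gene and averaged, lay between −0.31 and 0.17 on every array.

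Among the 9 tested members, H2-Aa, H2-Ab1 and Cd74 were low in most control livers after resection. Psmb8 and Psmb9 read higher on all day 6 arrays than on all earlier ones, and Tap1 did so on most of them. Ctss, B2m and H2-DMa are described apart. In the limma fit of all 6 groups, with adjustment over 7320 genes, 1 member differed between KO and control on day 0. It was Ctss, higher in KO, where 9.66% of all genes were called and 6.79% were higher in KO. On day 2 no member was called (5.71% of all genes), and 4 of 9 had an unadjusted p under 0.05, as did 1784 of all 7320 genes. On day 6 none was called (1.73% of all genes), and 2 had an unadjusted p under 0.05, as did 944 of all 7320 genes. The members' median KO minus control difference was 0.23, 0.86 and 0.24 on days 0, 2 and 6, against 0.02, −0.03 and −0.03 over all genes tested.

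Between days, 1 member fell in control from day 0 to day 2, H2-Aa, where 9.51% of all genes were called and 4.28% fell. In control from day 0 to day 6, 2 members rose, Psmb8 and Psmb9, where 2.86% were called and 2.12% rose. In KO no member was called on day 2 (0% of all genes, no member at an unadjusted p under 0.05) or on day 6 (0.137%, 3 members at an unadjusted p under 0.05). Over all 7320 genes, 439 on day 2 and 398 on day 6 had an unadjusted p under 0.05 in KO. No member's response was called different between genotypes by limma. The interaction called 0% of all genes on day 2 and 0.164% on day 6. On either day 0 members had an unadjusted p under 0.05, against 1070 of all 7320 genes on day 2 and 392 on day 6. The members' median day 2 difference was −0.23 in control and −0.18 in KO, against 0.08 and −0.02 over all genes. Their median day 6 difference was 0.24 in control and 0.14 in KO, against 0.00 and −0.05.

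**Figure D1:**
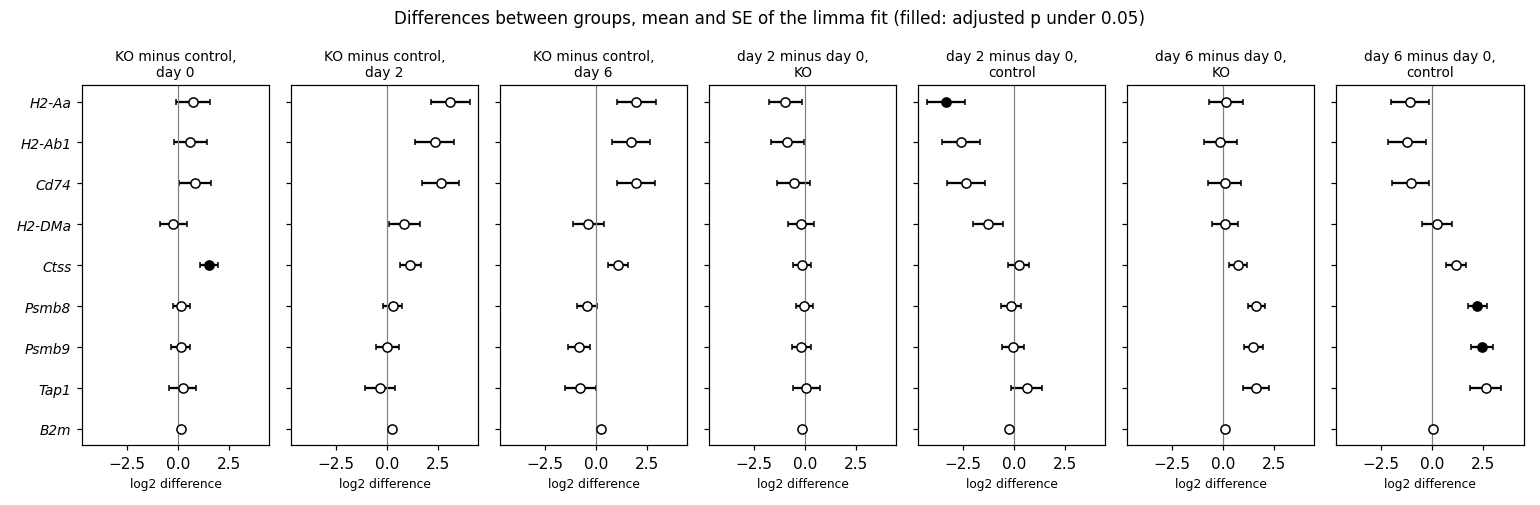
Log2 differences of 9 members in 7 comparisons, as the mean and standard error of the limma fit; filled points have an adjusted p under 0.05. Filled points are Ctss for KO minus control on day 0, H2-Aa for control on day 2 and Psmb8 and Psmb9 for control on day 6.

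H2-Aa, the class II alpha chain of the I-A molecule, read 10.03, 8.75 and 8.63 in control on day 0 and 6.81, 6.29 and 4.26 on day 2. On day 6 the control values were 11.47, 6.95 and 5.69. In KO it read 9.46 to 10.31 on day 0 (median 9.89), then 8.63, 8.81 and 9.31 on day 2 and 10.36, 9.93 and 9.78 on day 6. Every control array of day 2, and 2 of the 3 of day 6, lay below all others, whereas the array of control mouse 303 on day 6 was the highest of all.

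H2-Aa thus fell from day 0 to day 2 in control, by 3.35 ± 0.95 on the log2 scale (SE, adjusted p = 0.0347 by limma), a 10.2-fold lower mean. The matching KO difference was −0.97 ± 0.82 (adjusted p = 1), and the difference between these responses was 2.38 ± 1.26 (adjusted p = 0.391). The control fall rests on few arrays. It passed no longer without control day 0 mouse 263 (adjusted p = 0.115), mouse 265 (0.0816) or mouse 303 (0.0741), or without control day 2 mouse 265 (0.162). With the mouse as a fixed block, which compares mice 263 and 265 with themselves, it was −3.86 ± 0.51 (adjusted p = 0.0872 by limma). Without the 3 arrays of uneven Gapdh signal it was −2.85 ± 1.36 (adjusted p = 0.36). H2-Aa in control day 2 mouse 264, whose Gapdh difference was 0.07, was 6.29.

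H2-Ab1, the beta chain that pairs with H2-Aa, read 8.77, 7.65 and 7.59 in control on day 0, 5.98, 5.63 and 4.57 on day 2, and 10.55, 4.98 and 4.77 on day 6. In KO its values were 8.27 to 9.02 on day 0 (median 8.62), 7.53, 7.68 and 8.01 on day 2 and 8.87, 8.18 and 8.41 on day 6. The pattern of high and low arrays was that of its partner chain.

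Cd74, the invariant chain, read 9.44, 8.92 and 8.74 in control on day 0, 7.18, 6.58 and 6.27 on day 2, and 11.66, 6.62 and 5.67 on day 6. In KO it read 9.29 to 10.33 on day 0 (median 9.94), 9.12, 9.24 and 9.62 on day 2 and 10.56, 9.64 and 9.65 on day 6. On day 2 the KO and control values of all 3 genes did not overlap, and those of Ctss and B2m did not either. All 5 were higher in KO, where 8.28% of all genes were higher in KO without overlap.

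**Figure D2:**
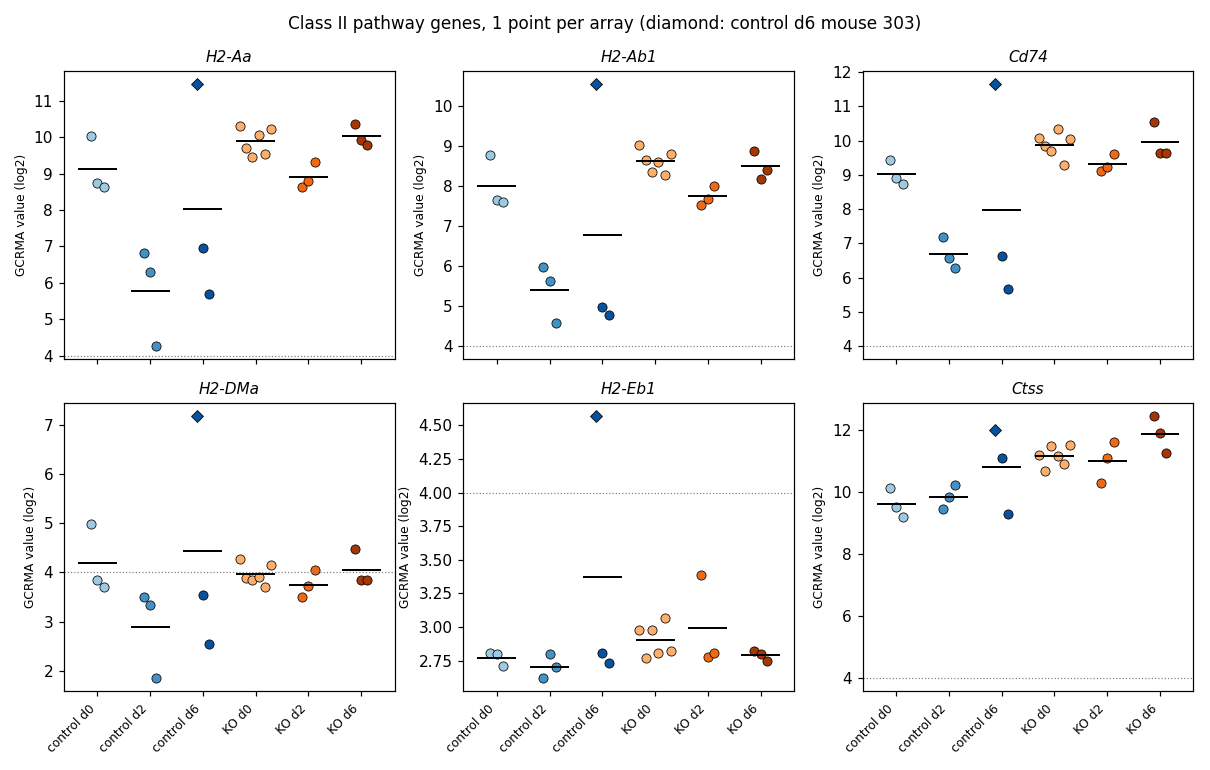
GCRMA values (log2) of 6 class II pathway genes in the 6 groups; points are arrays, bars are group means, the dotted line is log2 4 and the diamond is control mouse 303 on day 6. In H2-Aa, H2-Ab1 and Cd74 the control arrays of day 2 and 2 control arrays of day 6 lie below all KO arrays, and the diamond lies above them.

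In the fit of all arrays these genes did not pass between genotypes after surgery. On day 2 the KO minus control difference was 3.13 ± 0.95 for H2-Aa (adjusted p = 0.0585 by limma), 2.65 ± 0.92 for Cd74 (0.092) and 2.35 ± 0.95 for H2-Ab1 (0.14). H2-Aa on day 2 passed without control day 2 mouse 264 (3.38 ± 1.09, adjusted p = 0.0435) or control day 6 mouse 393 (3.13 ± 0.80, adjusted p = 0.0321). On day 6 it was 1.99 ± 0.95 for H2-Aa (adjusted p = 0.391), 1.97 ± 0.92 for Cd74 (0.377) and 1.72 ± 0.95 for H2-Ab1 (0.49). Before surgery it was 0.75 ± 0.82, 0.85 ± 0.80 and 0.61 ± 0.82 for H2-Aa, Cd74 and H2-Ab1 (adjusted p = 0.667, 0.6 and 0.742). With only the 2 groups compared in the fit, Cd74 was called on day 0 (0.85 ± 0.24, adjusted p = 0.0394 by limma). It was called there on day 2 as well (2.65 ± 0.31, 0.0406), whereas H2-Aa and H2-Ab1 were not called on either day.

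The array of control mouse 303 on day 6 decided much of this, since its distance from its group enters a gene's spread in all comparisons. Leaving out that array was one of 21 such fits. It is the highest array for these genes, and the labels give no reason to leave it out. The fits without it are therefore conditional on the values: they show how far 1 array moves the result, and their direction on day 6 and their smaller errors are no independent support. Without it, H2-Aa, H2-Ab1 and Cd74 were all called higher in KO on day 2, at 3.13 ± 0.52, 2.35 ± 0.34 and 2.65 ± 0.33 (adjusted p = 0.00276, 0.00102 and 0.000286 by limma). That fit called 3.05% of all genes higher in KO. On day 6, against 2 control arrays, they were higher in KO by 3.70 ± 0.58, 3.61 ± 0.39 and 3.81 ± 0.37 (adjusted p = 0.00178, 3.6e-05 and 1e-05), with 1.38% of all genes called higher. These 3 genes share 1 pattern across arrays and are not 3 independent results.

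The control differences between days moved likewise when that array was left out. On day 2 they were −2.61 ± 0.34 for H2-Ab1 and −2.36 ± 0.33 for Cd74 (adjusted p = 0.00084 and 0.00101 by limma, 4.3% of all genes called lower). On day 6, with mice 392 and 393 alone, the differences were −2.82 ± 0.58, −3.13 ± 0.39 and −2.89 ± 0.37 for H2-Aa, H2-Ab1 and Cd74 (adjusted p = 0.0123, 0.00027 and 0.00027, 0.997% of all genes called lower). The day 6 response then differed between genotypes for H2-Ab1 (3.00 ± 0.49) and Cd74 (2.96 ± 0.47), both with adjusted p = 0.00539, where 0.0546% of all genes were called in that direction. For H2-Aa that difference was 2.95 and did not pass. With all arrays the control day 6 minus day 0 differences were −1.10 ± 0.95, −1.24 ± 0.95 and −1.05 ± 0.92 for H2-Aa, H2-Ab1 and Cd74 (adjusted p = 0.629, 0.573 and 0.633).

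Leaving out the 3 arrays of uneven Gapdh signal as well, a choice made after seeing the data, left control day 2 with mouse 264 alone. That array is assumed to vary like the other groups, so the day 2 values have no spread of their own. The KO minus control differences on day 2 were 2.63 ± 0.55, 2.11 ± 0.42 and 2.75 ± 0.46 for H2-Aa, H2-Ab1 and Cd74 (adjusted p = 0.0444, 0.0356 and 0.0123 by limma, 0.478% of all genes called higher). On day 6, with mice 392 and 393 as the control group, they were 3.70 ± 0.43, 3.61 ± 0.33 and 3.80 ± 0.36 (0.000417, 3.09e-05 and 4.51e-05, 1.91% called higher).

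Mice sampled on 2 days can be followed one animal at a time. Control mouse 263 differed from day 0 to day 2 by −3.22 in H2-Aa, −2.79 in H2-Ab1 and −2.26 in Cd74. Control mouse 265 differed by −4.49, −3.08 and −2.65. The KO mice 250, 254 and 258 differed by −1.68 to −0.15 in H2-Aa, −1.49 to −0.34 in H2-Ab1 and −0.96 to −0.09 in Cd74. Both control mice had larger decreases than any of the 3 KO mice in all 3 genes. The day 2 arrays of both control mice are those of high Gapdh difference (1.58 and 9.50), against −0.08 to 0.23 on the KO arrays of day 2. The control side of the day 2 contrast within mice thus rests on those arrays, and the part of RNA quality was not tested.

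By day 6 the one control mouse with a day 0 sample was mouse 303, at 2.84, 2.96 and 2.92 above its own day 0 value in H2-Aa, H2-Ab1 and Cd74. The low control arrays of day 6, mice 392 and 393, have no day 0 sample. KO mice 312, 332 and 337 differed by −0.45 to 0.38 in H2-Aa over the same interval. A fit with the mouse as a fixed block therefore turned the control day 6 differences to 2.84 ± 0.72, 2.96 ± 0.63 and 2.92 ± 0.63 (adjusted p = 0.363, 0.321 and 0.322 by limma).

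**Figure D3:**
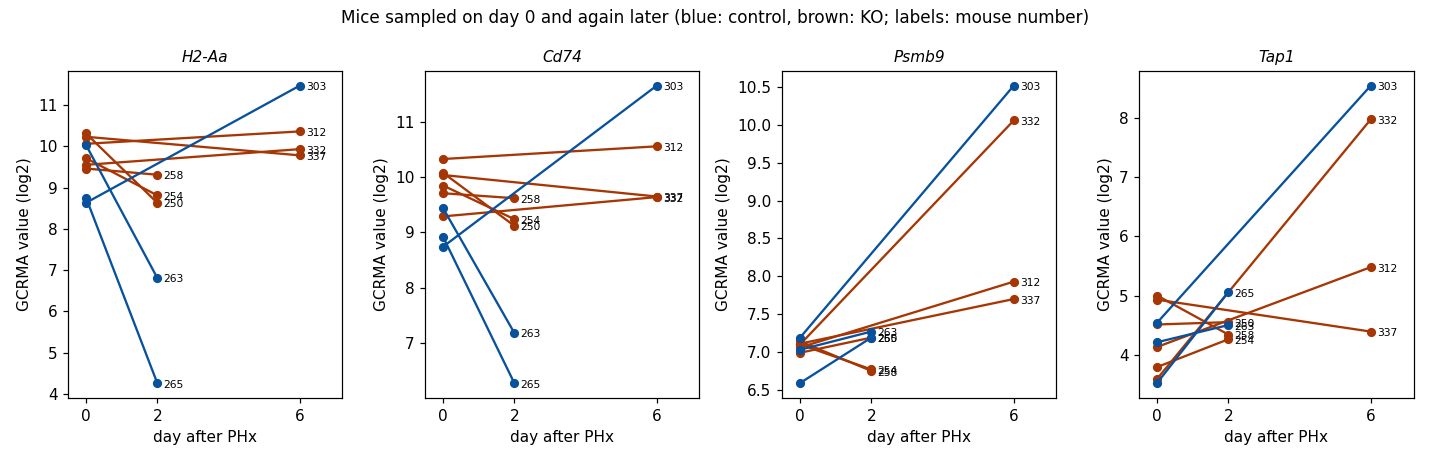
GCRMA values (log2) of H2-Aa, Cd74, Psmb9 and Tap1 in the mice sampled on day 0 and again on day 2 or 6 after PHx; each line is a mouse, blue for control and brown for KO. Control mice 263 and 265 go down in H2-Aa and Cd74, control mouse 303 goes up in all 4 genes, and KO mouse 332 goes up in Psmb9 and Tap1.

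H2-DMa, a chain of the peptide exchange factor, was near the lower end of the scale. In control it read 4.99, 3.85 and 3.71 on day 0, 3.50, 3.34 and 1.85 on day 2 and 7.18, 3.55 and 2.55 on day 6. In KO it lay between 3.49 and 4.47 on all 12 arrays. Its highest array was again control mouse 303 on day 6, and it was called in none of the 9 comparisons. H2-Eb1, the beta chain of the I-E molecule, was not tested. Its only value above 4 was 4.57, in the same array, and it read 2.62 to 3.39 in the other 20.

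The second probe set of H2-Aa and the other 2 of H2-Ab1 repeated the pattern. The other H2-Aa probe set read 6.29, 4.63 and 3.53 in control on day 2, 6.48 to 6.66 in KO on day 2, and 9.27 in control mouse 303 on day 6. The probe sets of H2-Aa and H2-Ab1 include names ending in s_at or x_at, which mark sets that can match more than 1 gene, so close paralogs cannot be told apart there. With each of 11177 probe sets tested on its own, 3 members had a probe set that fell in control on day 2, H2-Aa, H2-Ab1 (−3.03 ± 0.93, adjusted p = 0.0468 by limma) and B2m, where 5.24% of all probe sets fell.

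Cathepsin S, the class II protease, was higher in KO than in control at surgery. Ctss read 10.68 to 11.51 in KO on day 0 (median 11.18) and 10.14, 9.51 and 9.19 in control, with no overlap. The difference was 1.54 ± 0.44 (adjusted p = 0.0318 by limma), 2.91-fold. It missed the threshold without KO day 0 mouse 258 (adjusted p = 0.0609) or mouse 337 (0.0578), and without control day 0 mouse 265 (0.121) or mouse 303 (0.163). Without the 3 arrays of uneven Gapdh signal it was 1.47 ± 0.48 (0.0594).

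On later days the fitted Ctss differences were smaller, but not beyond their error. The difference between the genotypes' responses was −0.39 ± 0.67 on day 2 (adjusted p = 0.809 by limma) and −0.46 ± 0.67 on day 6, and neither was called. On day 2 Ctss read 10.30, 11.08 and 11.61 in KO and 9.46, 9.84 and 10.23 in control, a difference of 1.15 ± 0.51 (adjusted p = 0.17 by limma). On day 6 it read 12.45, 11.91 and 11.27 in KO and 12.01, 11.09 and 9.29 in control, a difference of 1.08 ± 0.51 (0.38). From day 0 to day 6 the control difference was 1.18 ± 0.51 (0.237), and 1.94 ± 0.42 (0.0134) without control day 6 mouse 393.

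Markers of several cell types were higher in KO along with Ctss on day 0. Of 12 macrophage and monocyte markers tested, 5 were higher in KO and 7 were not called, with a median of 1.14. They included the lysozyme Lyz2 (2.46 ± 0.75, adjusted p = 0.0432 by limma), the pore-forming Mpeg1 (1.79 ± 0.39, 0.00568) and the beta-glucan receptor Clec7a (2.21 ± 0.36, 0.000425). The list's centred mean lay at −0.10 to 0.43 on the KO arrays of day 0 and at −1.15 to −0.65 on the control arrays. Of 11 Kupffer cell markers 1 was lower, the haemoglobin scavenger receptor Cd163, which read 2.46 to 2.69 on all KO arrays. The list mean, which includes Cd163, was −0.47 to −0.02 in KO and −0.49 to 0.15 in control. Vsig4 of the same list was not called and went the other way, at 9.32 to 9.76 in KO and 8.26 to 9.30 in control. Of 8 stellate cell and fibroblast markers 6 were higher in KO, with a median of 3.35. Among them were the fibrillar collagen gene Col3a1 (4.25 ± 0.56, adjusted p = 5.61e-05 by limma) and the matrix proteoglycan Lum (4.31 ± 0.51, 2.23e-05). The centred mean of that list ranged from 0.29 to 1.83 in KO and from −1.98 to −1.69 in control. Of 5 cholangiocyte markers 2 were higher, Tspan8 and Cd24a, both at or under 4 on the control arrays of day 0. The part of these cell types in the Ctss difference was not tested.

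Among the other class II pathway genes, the lysosomal protease Ctsl was the only one of 8 tested that was called in any comparison. It was higher in KO by 1.24 ± 0.21 on day 0 (adjusted p = 0.000603 by limma) and 0.83 ± 0.24 on day 2 (0.0479). In control it rose by 1.02 ± 0.24 from day 0 to day 6 (0.0246).

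Psmb8, the immunoproteasome subunit that replaces Psmb5, read between 7.21 and 8.32 on all 15 arrays of days 0 and 2. On day 6 it read 10.45, 10.80 and 8.71 in control and 9.08, 10.83 and 8.77 in KO. All 6 arrays of day 6 lay above all earlier ones. In control it rose by 2.23 ± 0.48 from day 0 (adjusted p = 0.015 by limma), 4.7-fold. In KO the difference was 1.64 ± 0.42 (0.178), and it passed without control day 6 mouse 393 (0.0457).

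Psmb9, which replaces Psmb6, behaved alike: 6.18 to 7.27 on days 0 and 2 in both genotypes. On day 6 it read 10.52, 9.66 and 7.97 in control and 7.93, 10.06 and 7.70 in KO. It rose in control by 2.45 ± 0.55 (adjusted p = 0.0187 by limma), 5.45-fold. The KO difference was 1.48 ± 0.47 (0.479). Groups of day 0 and day 6 did not overlap for Psmb8 and Psmb9 in either genotype, where 12.2% of all genes in control and 1.67% in KO were higher on day 6 without overlap.

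The control rise of both subunits rests on single arrays. Psmb8 missed the threshold without control day 0 mouse 265 (adjusted p = 0.0941 by limma) or control day 6 mouse 392 (0.109). Psmb9 missed it without control day 0 mouse 263 (0.0555), mouse 265 (0.0979) or mouse 303 (0.0533), and without control day 6 mouse 303 (0.0718) or mouse 392 (0.102). With the mouse as a fixed block, where only mouse 303 gives a pair, the differences were 2.37 ± 0.63 and 3.33 ± 0.63 (0.397 and 0.29).

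Tap1, the peptide transporter subunit next to Psmb9, read 3.52 to 5.06 on all 15 arrays of days 0 and 2. On day 6 it read 8.55, 6.59 and 5.02 in control and 5.48, 7.98 and 4.39 in KO. The values of control mouse 393 (5.02) and KO mouse 337 (4.39) lay within the earlier range of Tap1. The control difference of 2.63 ± 0.76 missed the threshold (adjusted p = 0.0693 by limma). It passed without KO day 6 mouse 332 (0.0251), KO day 6 mouse 337 (0.0484) or control day 6 mouse 393 (3.48 ± 0.75, 0.013). The KO difference was 1.62 ± 0.66 (0.786). Its other 3 probe sets read below 3 on every array, so Tap1 rests on a single probe set.

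**Figure D4:**
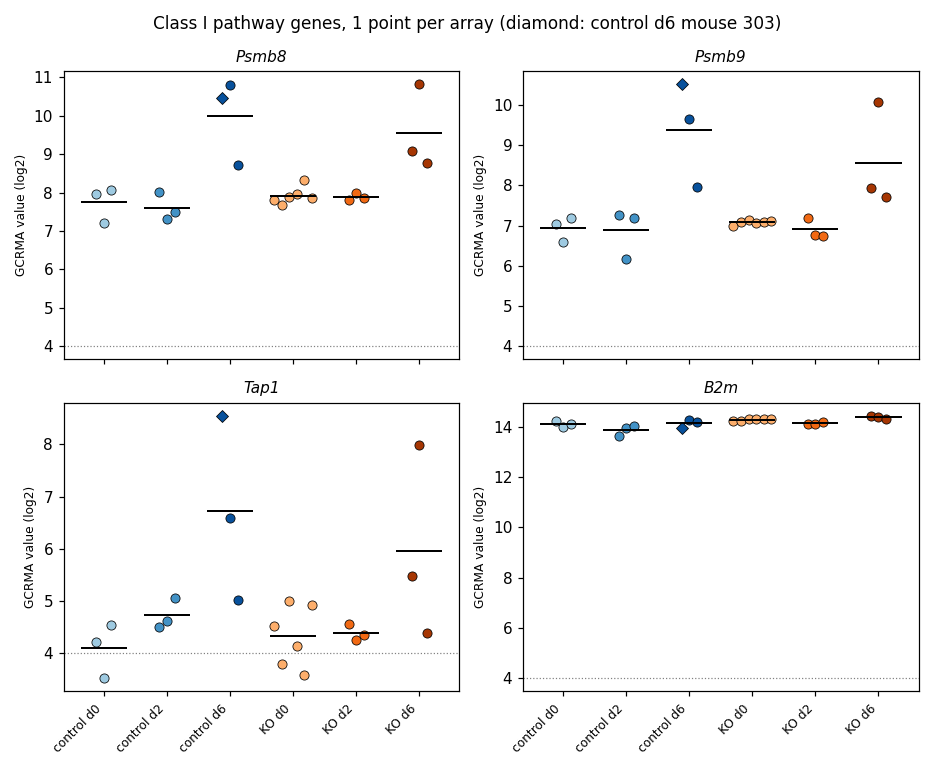
GCRMA values (log2) of 4 class I pathway genes in the 6 groups; points are arrays, bars are group means and the diamond is control mouse 303 on day 6. Psmb8 on day 6 lies above all earlier arrays in both genotypes, with 2 control arrays and 1 KO array above 10, and B2m stays between 13.63 and 14.44.

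The day 6 arrays differed from one another in the same way for all 3 genes. Control mice 303 and 392 and KO mouse 332 were high, and KO mice 312 and 337 and control mouse 393 were lower. KO mouse 332 was 2.51, 2.96 and 4.39 above its own day 0 value in Psmb8, Psmb9 and Tap1, and control mouse 303 was 2.37, 3.33 and 4.01 above its own. KO mouse 337 was 0.90 and 0.59 above in Psmb8 and Psmb9 and −0.54 from its day 0 value in Tap1. The KO minus control differences on day 6 were −0.43 ± 0.48, −0.82 ± 0.55 and −0.77 ± 0.76 for Psmb8, Psmb9 and Tap1 (adjusted p = 0.811, 0.611 and 0.776 by limma). That of Tap1 turned to 0.15 without control day 6 mouse 303.

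Core proteasome genes were measured beside them. Of 14 core proteasome genes none was called between day 0 and day 6 in either genotype (medians of 0.18 in control and 0.14 in KO). Psmb5 and Psmb6, the subunits replaced, read 9.82 to 10.54 and 9.66 to 10.86 over all 21 arrays. The third immunoproteasome subunit, Psmb10, read 10.30, 9.63 and 8.03 in control and 8.93, 10.07 and 8.56 in KO on day 6, against 7.48 to 8.86 before. Tap2, the partner of Tap1, read 7.98, 7.83 and 4.74 in control and 6.42, 7.79 and 6.25 in KO on day 6. Neither was called.

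B2m, the constant partner of the class I heavy chain, was near the top of the scale on every array, between 13.63 and 14.44, and by this probe set it was called in no comparison. On each day all KO values lay above all control values, a separation whose share of all genes is given for day 2 alone. The KO minus control differences of B2m were 0.16 ± 0.12 on day 0, 0.25 ± 0.14 on day 2 and 0.24 ± 0.14 on day 6. Its second probe set read 13.54, 13.55 and 13.54 in control on day 0 and 12.37, 13.30 and 13.12 on day 2, and 13.41 to 13.53 in KO on day 2. When probe sets were tested singly it fell in control by 0.61 ± 0.19 (adjusted p = 0.0452 by limma). The KO minus control difference of that probe set on day 2 was 0.56 ± 0.19 (0.0776). The 2 lowest arrays, of control mice 263 and 265, are both among those of uneven Gapdh signal, whose part was not tested. Of 8 class I heavy chain genes tested, H2-K1 was higher in KO on day 0 (0.81 ± 0.20, adjusted p = 0.0162 by limma) and rose in control from day 0 to day 6 (1.07 ± 0.23, 0.0167). H2-Q10, a secreted class I chain made by hepatocytes, fell in control from day 0 to day 2 by 0.65 ± 0.20 (0.044). The other class I heavy chains tested were not called. Of 14 genes of class I loading and peptide supply, 1 was called in the 9 comparisons: the aminopeptidase Lap3 fell in control on day 2 by 1.02 ± 0.27 (0.0267).

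Interferon-gamma response markers were high on the same day 6 arrays as Psmb8, Psmb9 and Tap1. The list includes Psmb10 and Irf1, which are also described on their own. Its name does not tell which signal was present, and that was not tested. Of 15 tested, 5 were higher in control on day 6 than on day 0 and 10 were not called, with a median of 2.22. They included the guanylate-binding proteins Gbp6 (3.62 ± 0.76, adjusted p = 0.013 by limma) and Gbp2 (3.11 ± 0.68, 0.0162) and the immunity-related GTPase Irgm1 (2.71 ± 0.60, 0.0174). Without control day 6 mouse 303, 1 of 15 was called and the median was 1.83. In KO none of the 15 was called on day 6, with a median of 1.86. The list's centred mean stood at 2.43, 1.74 and −0.20 for control mice 303, 392 and 393 on day 6. It was 0.84, 2.96 and 0.02 in KO mice 312, 332 and 337, and −0.99 to −0.05 on days 0 and 2. Ubd, which holds a ubiquitin-like protein, differed from the rest of the list: it was higher in KO on all 3 days. On day 0 it read 7.56 to 9.74 in KO and 2.44 to 3.08, near background, in control, and the fitted differences of days 2 and 6 were 4.42 and 4.96.

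**Figure D5:**
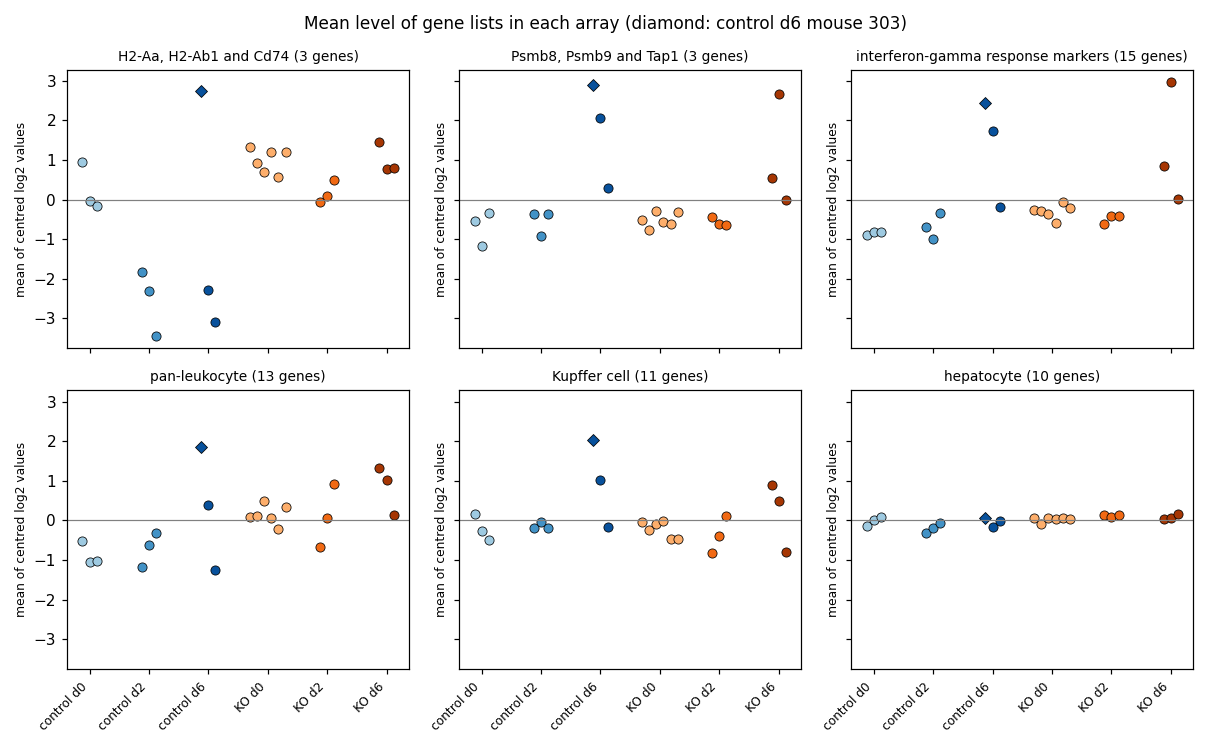
Mean of centred log2 values per array for 6 gene lists in the 6 groups; each point is an array and the diamond is control mouse 303 on day 6. Psmb8, Psmb9 and Tap1 and the interferon-gamma markers are high on the same day 6 arrays, the class II genes are high only on the diamond among control arrays of day 6, and hepatocyte markers stay between −0.31 and 0.17.

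The regulators themselves gave little signal. Ciita, the class II coactivator, read 2.10 to 2.46 and Ifng 2.35 to 2.53 on all arrays, below the filter, as were Creb1 and Socs1. Of 13 regulators tested, 1 was called: the interferon-gamma receptor chain Ifngr1 was higher in KO on day 0 by 1.03 ± 0.24 (adjusted p = 0.0094 by limma). Irf1, an interferon-induced factor that acts on class I promoters, read 9.08, 7.98 and 7.47 in control and 7.66, 9.09 and 7.07 in KO on day 6, and was not called.

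Leukocyte markers were high on the array of control mouse 303 on day 6 along with class II genes, and on the 5 control arrays with low class II values they ranged widely. The centred mean of 13 pan-leukocyte markers stood at 1.85, 0.40 and −1.25 for control mice 303, 392 and 393 on day 6. It was −1.05 to −0.51 in control on day 0 and −1.19 to −0.33 on day 2, so these days overlapped. In KO it was −0.23 to 0.50 on day 0, −0.67 to 0.93 on day 2 and 0.13 to 1.33 on day 6. None of the 13 was called in any comparison with all arrays. Macrophage and monocyte markers averaged 1.26, 0.18 and −1.11 for control mice 303, 392 and 393 on day 6. On control arrays of days 0 and 2 they averaged −1.15 to −0.24. Of that list only Mpeg1 was called in control on day 6 (2.65 ± 0.45, adjusted p = 0.00389 by limma). In KO on day 6 only Fcgr1 was (3.16 ± 0.54, 0.0144), with a group at or under log2 4. On day 2 only Clec7a was higher in KO (2.07 ± 0.41, 0.00994). Kupffer cell markers averaged 2.03, 1.02 and −0.17 in the control arrays of day 6 and −0.49 to 0.15 on all control arrays of days 0 and 2. That list includes Marco, at 10.83, 8.03 and 6.56 in control on day 6 and 2.42 to 2.88 on day 0. On day 2 Marco read 2.45, 2.69 and 9.67 in control mice 263, 264 and 265, so the days 2 and 6 overlapped. Marco alone of the list was called in control on day 6 (5.78 ± 1.32, adjusted p = 0.0208 by limma). Its KO minus control difference on day 6 was −5.39 ± 1.32 (0.0421), and that of Cd163 was −4.10 ± 0.33 (7.65e-07). On day 6 the Kupffer and pan-leukocyte list means of control mouse 392 lay above those of all control arrays of days 0 and 2, with H2-Aa at 6.95. Of single markers, Clec4f, Vsig4 and Ptprc did so too. Cd163 (7.06) and Marco (8.03) did not, with 7.87 in control mouse 264 and 9.67 in control mouse 265 on day 2.

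Markers of dendritic cells, B cells and T and NK cells were mostly at background, whereas those of macrophages and Kupffer cells mostly were not. Of 15 dendritic cell markers measured, 11 were at or under 4 on every array, among them Itgax, Flt3 and Xcr1. Of 14 B cell and plasma cell markers 11 were, among them Cd79a and Pax5, and of 16 T and NK cell markers 13 were, among them Cd3e. Of 16 macrophage and monocyte markers 3 were, and of 11 Kupffer cell markers 0 were. By a different measure, 7320 of 12393 genes in all passed the filter on low values. Costimulation genes were likewise low, with 8 of 12 at or under 4 throughout. The adhesion molecule Icam1 was higher in KO on day 0 (2.38 ± 0.64, adjusted p = 0.0235 by limma). The part of cell content in the class II values was not tested.

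Across the 21 arrays 6 members fell into these same groups. As a description over arrays that share groups and mice, Pearson's r was 0.96 to 0.98 among H2-Aa, H2-Ab1 and Cd74, and 0.86 to 0.96 among Psmb8, Psmb9 and Tap1. Between the groups it was 0.09 to 0.21. Ctss correlated with the class II genes at 0.59 to 0.68 and with Psmb8, Psmb9 and Tap1 at 0.44 to 0.48. The tested genes most like the mean of H2-Aa, H2-Ab1, H2-Eb1 and Cd74 were Slc15a4 (r = 0.85), Man2b1 (0.81) and Zyx (0.78). Without control day 6 mouse 303, Slc15a4 (0.87) and Man2b1 (0.83) were still among the first 8. On deviations from group means Pold3 (0.94), Rgl1 (0.89) and Per1 (0.84) came first. Slc15a4, Man2b1 and Zyx were not among the first 8 there.

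The genes most like the mean of Psmb8, Psmb9 and Tap1 were Irgm2 (r = 0.97), BC023105 (0.96), Gbp3 (0.95) and Igtp (0.95). Gbp3 and Irgm2 belong to the interferon-inducible GTPases, as does Igtp. Without control day 6 mouse 303 the first 4 were Cmpk2 (0.97), Dhx58 (0.97), Mx2 (0.96) and Zbp1 (0.96). BC023105 and Irgm2 (both 0.95) were still among the first 8, and Gbp3 and Igtp were not. On deviations from group means BC023105 (0.94), Irgm2 (0.93) and Ifi47 (0.91) came first, and Gbp3 was not among the first 8. Igtp read 13.43, 11.95 and 10.22 in control and 10.22, 13.02 and 9.44 in KO on day 6, against 8.08 to 9.38 before. Over all 21 arrays the first 8 of each group shared no gene.

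In the order of group means, neighbouring groups overlapped in their values for all 10 members, with 2 exceptions. For Psmb8 and Psmb9, KO day 6 lay above KO day 0 without overlap. Control day 2 had the lowest mean of the 6 groups for H2-Aa, H2-Ab1, Cd74, H2-DMa, H2-Eb1, Psmb8, Psmb9 and B2m. Tap1 and Ctss had their lowest mean in control on day 0.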

How the data were processed

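Total RNA extracted with Trizol was hybridised to Affymetrix mouse arrays after 3-prime IVT labelling, per the labels' protocols. Per the submitters' processing notes, the authors processed signals with GCRMA, version not given, and the deposited values are log2 signals, judging by their range. No scanner files were used. Groups came from the labels' genotype and day. A gene was represented by the probe set with the highest mean, and 7320 genes above log2 4 in at least 3 arrays were tested.

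The 9 comparisons are contrasts of group means, fitted together over 6 groups by lmFit and eBayes of limma 3.58.1 (R 4.3.3), which leaves 15 residual degrees of freedom. P-values are two-sided, adjusted by Benjamini-Hochberg over all genes of a comparison at a threshold of 0.05. Differences are of log2 values with their standard error. A value at or under log2 4 is treated as near background. The model was tested on simulated data with normal noise and 200 genes changed. For KO minus control on days 0, 2 and 6, 58.5%, 34% and 37.5% of changes of log2 1 were recovered. For the day 2 and day 6 responses 6% and 15.5% were recovered, and 73.5% and 74% of changes of log2 2. Small differences in response would thus mostly be missed. The changed genes were drawn from all tested genes, so these shares need not hold for the members. For H2-Aa, H2-Ab1 and Cd74 the response differences had standard errors of 1.22 to 1.26, so larger ones could be missed too. The number of arrays limits the precision.

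The members, lists and alternatives were chosen with earlier results of these data known. Named genes were the members, up to 4 genes per list that passed in a comparison (or the one with the smallest p), the 8 genes most correlated with each of the 2 member groups, and a short fixed list. Other genes named only by values, Psmb10, Tap2, Igtp, Flt3, Xcr1, Pax5, Creb1 and Socs1, were chosen after their values were seen or stand for counts of list members at background. Day 0 and later samples of a mouse carry its number, so numbers pair samples of 1 animal. In 9 pairs the correlation of deviations from group means was −0.057 to 0.303 (median 0.119), and 5 were above 0.1. The mouse was tried as a block. Results were also computed without a filter, with a log2 6 filter, with averaged probe sets, each probe set alone, quantile normalization, median centring, trend and robust eBayes, only the groups compared, and leaving out arrays. Plots used matplotlib 3.10.9 (Python 3.11.15).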

Additional observations from a re-analysis of the deposited data

How the results depend on the processing

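Over 44 single-gene results and 9 counts of members called, 12 alternatives and 21 fits without 1 array gave 1344 single-gene values on the same side of the threshold with the same sign, 36 newly past it, 28 no longer past it and 16 of opposite sign. The number of members called for KO minus control on day 0 went from 1 to 0 with no filter and without the 3 arrays whose Gapdh difference exceeded 1, and to 2 with only the groups compared. On day 2 it went from 0 to 1 with only the groups compared, with Cd74 newly called on both days. In control on day 2 it went from 1 to 0 with no filter, with averaged probe sets, with only the groups compared, with the mouse as a fixed replicate block and without the 3 arrays, and to 3 with each probe set alone. In control on day 6 it went from 2 to 0 with only the groups compared and with the fixed replicate block. Without the 3 arrays and control day 6 mouse 303, added once the values had been seen, it was 3 for KO minus control on days 2 and 6, in control on day 2 and in the day 6 response. In control on day 6 it was also 3, but other genes: H2-Aa, H2-Ab1 and Cd74 were called lower, and Psmb8 (adjusted p = 0.0564 by limma) and Psmb9 (0.064) were no longer called. The mouse as a random replicate block changed no call of a member. Beyond the shares given with the genes above, the share of all genes called is not given for these alternatives or for the fits without 1 array. Their counts of members therefore cannot be set against all genes.

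Leaving out 1 array gave 0 to 1 members called for KO minus control on day 0 and 0 to 3 on days 2 and 6. It gave 0 to 3 in control on day 2, 0 to 4 in control on day 6, 0 to 1 in KO on day 6 and 0 to 2 in the day 6 response, and 0 in KO on day 2 and in the day 2 response. Which array decides each is given with the gene, and the cause was not tested. Signs turned without 1 array in small differences. H2-Aa on day 6 in KO was −0.03 to 0.26, H2-Ab1 −0.32 to 0.03 and Cd74 −0.24 to 0.22. In control on day 6 H2-Aa was −2.82 to 0.07 and Cd74 −2.89 to 0.11, and the day 6 response of Cd74 was −0.04 to 2.96. Tap1 for KO minus control on day 6 was −1.78 to 0.15, and without mouse 303 and the 3 arrays it was 0.15, with a day 6 response of 0.03. With the mean of probe sets, H2-Aa and H2-Ab1 on day 6 in KO were −0.03 and 0.16. With the fixed replicate block H2-Aa, H2-Ab1 and Cd74 in control on day 6 were 2.84, 2.96 and 2.92, since mouse 303 alone gives that pair.

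Groups of 3 arrays, values near background for H2-DMa, H2-Eb1 and Tap1, and strain labels that go with genotype limit these results. Replicate arrays are separate mice, and the day 0 and later arrays of a mouse are not independent.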
